A study of Mus musculus with 16 samples.

Results

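The genes described here encode enzymes outside the sirtuin family that consume or convert NAD+, NADH or nicotinamide, namely Parp1, Parp2, Parp3, Cd38, Bst1, Sarm1, Nnmt, Nudt12 and Nnt. Their rows were found by symbol, and the 9 symbols matched 10 rows by gene identifier of the 54532 rows in the count table, because Nnt is listed under 2 identifiers. RNA of the hippocampus was sequenced from 16 mice. Both genotypes, WT and hTau.P301S, were studied with vehicle water (called WT and hTau.P301S) and with 6 mM nicotinamide riboside (NR), from which cells make NAD+, in the drinking water (called WT + NR and hTau.P301S + NR), with 4 mice per group. The transgene of both hTau.P301S groups is human Tau bearing P301S, driven in neurons by the Thy1 promoter. The sample labels state that treatment began at 12 months of age and lasted 3 months, so that mice of all 4 groups were 15 months old at its end. The study's own text gives other ages than the labels, and in one passage a shorter treatment, and no test used either. The genetic background of the lines was not given in the sources used here.

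NAD+ is both a redox carrier and a substrate that several enzymes break down, releasing nicotinamide. PARP enzymes transfer its ADP-ribose to proteins, PARP1 and PARP2 chiefly at broken DNA. CD38 and its relative BST1 are membrane ectoenzymes that hydrolyse or cyclise NAD+, and SARM1 is the neuronal NAD+ hydrolase that drives the degeneration of injured axons. NNMT methylates nicotinamide and thereby removes it from salvage, NUDT12 is a peroxisomal hydrolase of NADH, and NNT, in the inner mitochondrial membrane, reduces NADP+ with NADH.

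Total counts ranged from 16490261 to 21915362 per mouse. One mouse, hTau.P301S replicate 1, stood apart from the rest, with 14.4% of its counts on mitochondrially encoded genes (4.48% to 7.07% in the other mice) and 19467 genes detected (22199 to 24918 in the others). Its 8 microglial markers summed to 2654 CPM (counts scaled to the normalised library size), against 348 to 787 in the other mice, its 8 markers of blood-borne immune cells to 452 CPM, against 11.0 to 65.0, and its 8 neuronal markers to 3749 CPM, against 5566 to 11717. Its normalisation factor was 0.685 (0.955 to 1.10 in the other mice), and a lower factor raises every CPM value of a mouse. Markers of hippocampal principal neurons were present in every mouse (265 to 735 CPM over 5 genes). The 8 striatal medium spiny neuron markers ranged from 158 to 2409 CPM, with the 3 highest sums in WT replicate 2 (2409 CPM), hTau.P301S + NR replicate 4 (890 CPM) and WT + NR replicate 3 (486 CPM), and the 8 choroid plexus markers ranged from 21.0 to 10023 CPM. No gene of these lists was at 0 in all mice. Of the 8 blood-borne immune markers, however, only 2 had enough counts to be tested between hTau.P301S and WT, 1 higher and 1 lower.

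The members differed widely in level. Divided by the length of the gene model, the median level over 16 mice was 18.8 CPM per kb for Parp1, 6.17 for Sarm1, 3.55 for Parp2, 2.43 for Cd38, 1.77 for Nudt12, 1.5 for Parp3, 0.389 for Nnmt, 0.109 for Bst1 and 0.0271 for Nnt. Parp1 lay above 84.8% of the genes kept by the filter on low counts and Nnt, by its identifier with counts, above 0.154% of them. The lowest Parp1 value in any mouse (10.9 CPM per kb) was above the highest Sarm1 value (7.25 CPM per kb), so that these neighbours in the order did not overlap. Every other pair of neighbours in the order overlapped over the 16 mice.

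**Figure D1:**
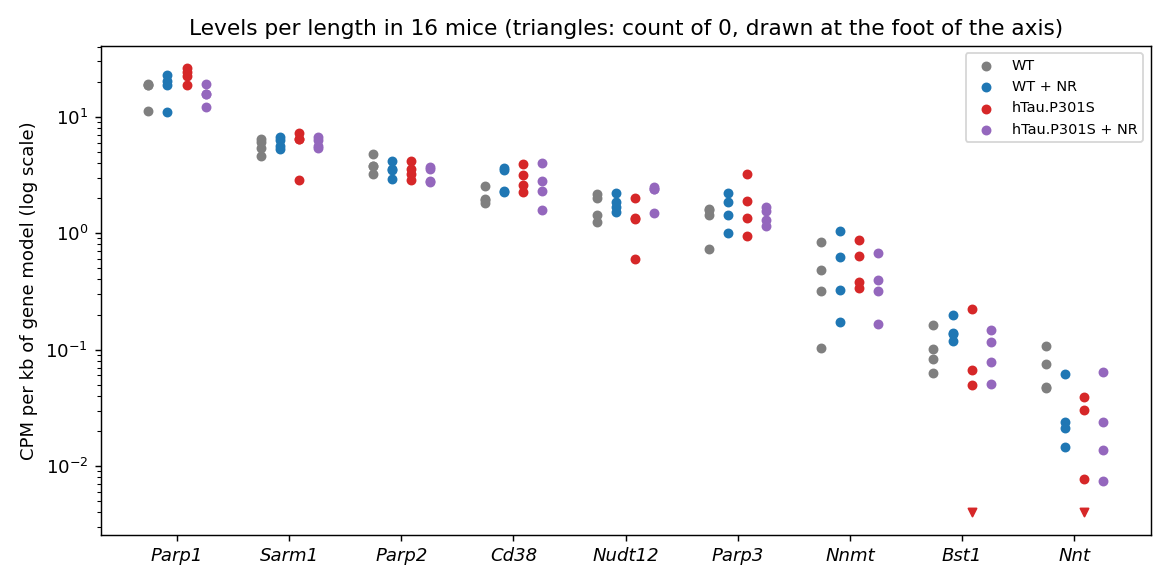
CPM per kb of gene model (log axis) for each member in each of the 16 mice, coloured by group and ordered by the median, with counts of 0 drawn as triangles at the foot of the axis. Parp1 lies apart at the top, between 10.9 and 26.1 CPM per kb, and Nnmt, Bst1 and Nnt lie at the foot.

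Of the 9 members, 5 had a promoter window (250 bases before to 50 after the start) in the RefSeq table of build GRCm38.p6, and these differed in base composition. The windows of Parp1, Parp2, Parp3 and Sarm1 held 20, 25, 16 and 15 CpG dinucleotides, against a median of 7 over all 32851 windows, whereas that of Cd38 held 1, and 14.1% of all windows hold at most that many. A GC box, searched as GGGCGG on both strands (CCGCCC on the other), was found 4 times in the Parp1 window and once each in those of Parp2 and Sarm1, and no match was found in those of Parp3 and Cd38, whereas 35.7% of all windows hold at least 1. Each such box holds a CpG. The windows of Parp1 (chr1:180568641-180568940, plus strand), the member with the highest level, and of Cd38 (chr5:43868559-43868858, plus strand), the only one poor in CpG, are shown for this contrast with each CpG in capitals. The Cd38 window lies wholly inside the gene as GENCODE places it (start at chr5:43868553), since RefSeq sets the start further in. Bases before the GENCODE start of Cd38 were not examined.
Parp1: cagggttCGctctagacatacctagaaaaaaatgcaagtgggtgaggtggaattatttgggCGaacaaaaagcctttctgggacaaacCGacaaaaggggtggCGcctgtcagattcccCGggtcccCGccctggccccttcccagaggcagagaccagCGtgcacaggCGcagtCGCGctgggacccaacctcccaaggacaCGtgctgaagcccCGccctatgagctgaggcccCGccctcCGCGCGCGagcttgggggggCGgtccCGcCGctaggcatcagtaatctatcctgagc
Cd38: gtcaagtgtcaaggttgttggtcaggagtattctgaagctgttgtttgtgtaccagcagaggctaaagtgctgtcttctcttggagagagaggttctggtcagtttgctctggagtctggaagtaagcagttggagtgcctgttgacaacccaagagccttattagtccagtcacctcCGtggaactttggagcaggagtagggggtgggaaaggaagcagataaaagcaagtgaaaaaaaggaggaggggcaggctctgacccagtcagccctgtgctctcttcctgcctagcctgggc

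On this genome (GRCm38), Bst1 (chr5:43818885-43843986) and Cd38 (chr5:43868553-43912375) lie head to tail on the plus strand of chromosome 5, 24567 bases apart. Parp1 lies at chr1:180568924-180601254, Parp2 at chr14:50807841-50821301, Parp3 at chr9:106470322-106476949, Nnmt at chr9:48591877-48605153, Sarm1 at chr11:78472330-78497754, Nnt at chr13:119335448-119408997 and Nudt12 at chr17:58999618-59013372. Several members overlap another gene. The Parp3 gene shares 987 bases with Rrp9, which had 200 to 619 counts per mouse, and the Bst1 gene shares 2754 bases with Fbxl5, which had 1181 to 2424 counts. Both partners lie on the opposite strand, and the library protocol was not stated to keep strand, so that reads in the shared stretches cannot be told apart. The second Nnt identifier covers 73425 bases of the first and had no count in any of the 16 mice, which allows up to 0.134 to 0.256 CPM, depending on the mouse (a limit of 3 counts, for counting error only). Both Nnt identifiers lie on the same strand. How reads in their shared stretch were assigned was not stated, so the Nnt counts used here may miss reads of this gene.

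The first question was whether these genes differed between hTau.P301S and WT mice without NR. A gene was called when its adjusted p was under 0.05 and its absolute log2 fold change above 0.5. With edgeR, 0 of the 7 members tested were called and 0 reached an unadjusted p under 0.05, where 0.00611% of all genes tested were called and 7.14% reached that p. DESeq2 on the same mice called 0 of 9 and put 1, Nnt, at an unadjusted p under 0.05. Bst1 and Nnt did not pass edgeR's filter on low counts and were not among the genes tested. In bulk RNA such as this, fewer cells of a type and less RNA per cell cannot be told apart.

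Parp1, the main poly(ADP-ribose) polymerase of the response to DNA breaks, measured 98.7, 58.9, 101 and 98.9 CPM in WT replicates 1 to 4 and 99.9, 128, 138 and 117 CPM in hTau.P301S replicates 1 to 4. Of the hTau.P301S mice, 3 were above every WT mouse, and the exception was replicate 1, which lay within the WT range. The log2 fold change was 0.44 (95% confidence interval -0.05 to 0.92, edgeR adjusted p = 0.598), and with 1 mouse left out it ranged from 0.26 without WT replicate 2 (edgeR adjusted p = 0.626) to 0.51 without hTau.P301S replicate 1 (edgeR adjusted p = 0.388). Cd38, the main NAD+ glycohydrolase, measured 9.87, 7.06, 7.44 and 7.63 CPM in WT and 8.72, 10.0, 12.2 and 15.2 CPM in hTau.P301S mice. In 15 of the 16 pairs of 1 mouse of each genotype, the hTau.P301S mouse was the higher. Its log2 fold change was 0.53 (-0.02 to 1.08, edgeR adjusted p = 0.598), and 0.64 without hTau.P301S replicate 1 (edgeR adjusted p = 0.352).

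Sarm1 measured 30.0, 25.8, 36.4 and 34.0 CPM in WT and 16.1, 36.3, 40.8 and 35.9 CPM in hTau.P301S mice. Here hTau.P301S replicate 1 was the lowest of all 16 mice and the other hTau.P301S mice lay in or above the upper part of the WT range. The log2 fold change was 0.03 (-0.61 to 0.67, edgeR adjusted p = 0.974), -0.03 with the replicate number as a block and 0.25 without replicate 1 (edgeR adjusted p = 0.522). Nudt12 measured 9.59, 8.80, 5.48 and 6.28 CPM in WT and 2.65, 8.74, 5.78 and 5.93 CPM in hTau.P301S mice, again lowest in hTau.P301S replicate 1. Its log2 fold change was -0.38 (-1.22 to 0.46, edgeR adjusted p = 0.695), and it moved to -0.15 without that mouse and to -0.67 without hTau.P301S replicate 2.

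Parp3, which attaches single ADP-ribose units and acts at double-strand breaks, went the other way in that mouse. It measured 5.92, 5.88, 2.69 and 5.30 CPM in WT and 11.8, 6.94, 4.96 and 3.49 CPM in hTau.P301S mice, with the highest CPM of all 16 mice in hTau.P301S replicate 1. Before scaling that mouse was not the highest, with 138 Parp3 counts against 145 in WT + NR replicate 4. The log2 fold change was 0.46 (-0.52 to 1.44, edgeR adjusted p = 0.685), and 0.05 without replicate 1. Parp2, which backs up PARP1 at breaks, measured 13.8, 11.6, 13.6 and 17.3 CPM in WT and 15.0, 10.3, 13 and 11.7 CPM in hTau.P301S mice, and the groups overlapped. Its log2 fold change was -0.17 (-0.66 to 0.32, edgeR adjusted p = 0.768), and it moved to -0.28 without hTau.P301S replicate 1 and to -0.07 without WT replicate 4. It varied least of the members within groups, with an SD of 0.22 on the log2 CPM scale, against 0.34 to 0.83 for the others.

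The 3 members with few reads were Nnmt (220 counts over 16 mice), Bst1 (110) and Nnt (78). Nnmt had 14, 9, 25 and 3 counts in WT and 16, 10, 11 and 18 counts in hTau.P301S mice, with a log2 fold change of 0.33 (-1.07 to 1.73, edgeR adjusted p = 0.849). Bst1 had 5, 6, 4 and 10 counts in WT and 0, 14, 3 and 4 counts in hTau.P301S mice, so that the hTau.P301S mice held both the lowest and the highest value of the 16. Nnt, the transhydrogenase, had 6, 6, 10 and 14 counts in WT and 0, 4, 1 and 5 counts in hTau.P301S mice.

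Nnt was the only member with groups that did not overlap, and this in 1 comparison, whereas 6.24% of the genes that passed the filter did not overlap between these groups. On the CPM scale every WT mouse lay between 0.329 and 0.757 and every hTau.P301S mouse at or under 0.277, and the count of 0 in hTau.P301S replicate 1 allows up to 0.256 CPM. This difference did not pass a test across genes. Without the filter edgeR gave a log2 fold change of -1.73 ± 0.90 (SE, n = 4 per group, adjusted p = 0.579), and DESeq2 gave -1.79 ± 0.90 (adjusted p = 0.501, unadjusted p = 0.0471). In WT + NR mice Nnt had 2, 8, 3 and 3 counts and in hTau.P301S + NR mice 10, 1, 3 and 2 counts. The WT mice without NR thus held 36 of the 78 counts. Between the genotypes on NR, edgeR without the filter gave a log2 fold change of -0.12 ± 0.81 for Nnt (SE, adjusted p = 0.985). Nnt is known to differ between inbred mouse strains, and the background of the lines was not given in the sources used here. The transgene, the background and, at so few counts, counting error cannot be told apart for this gene.

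**Figure D2:**
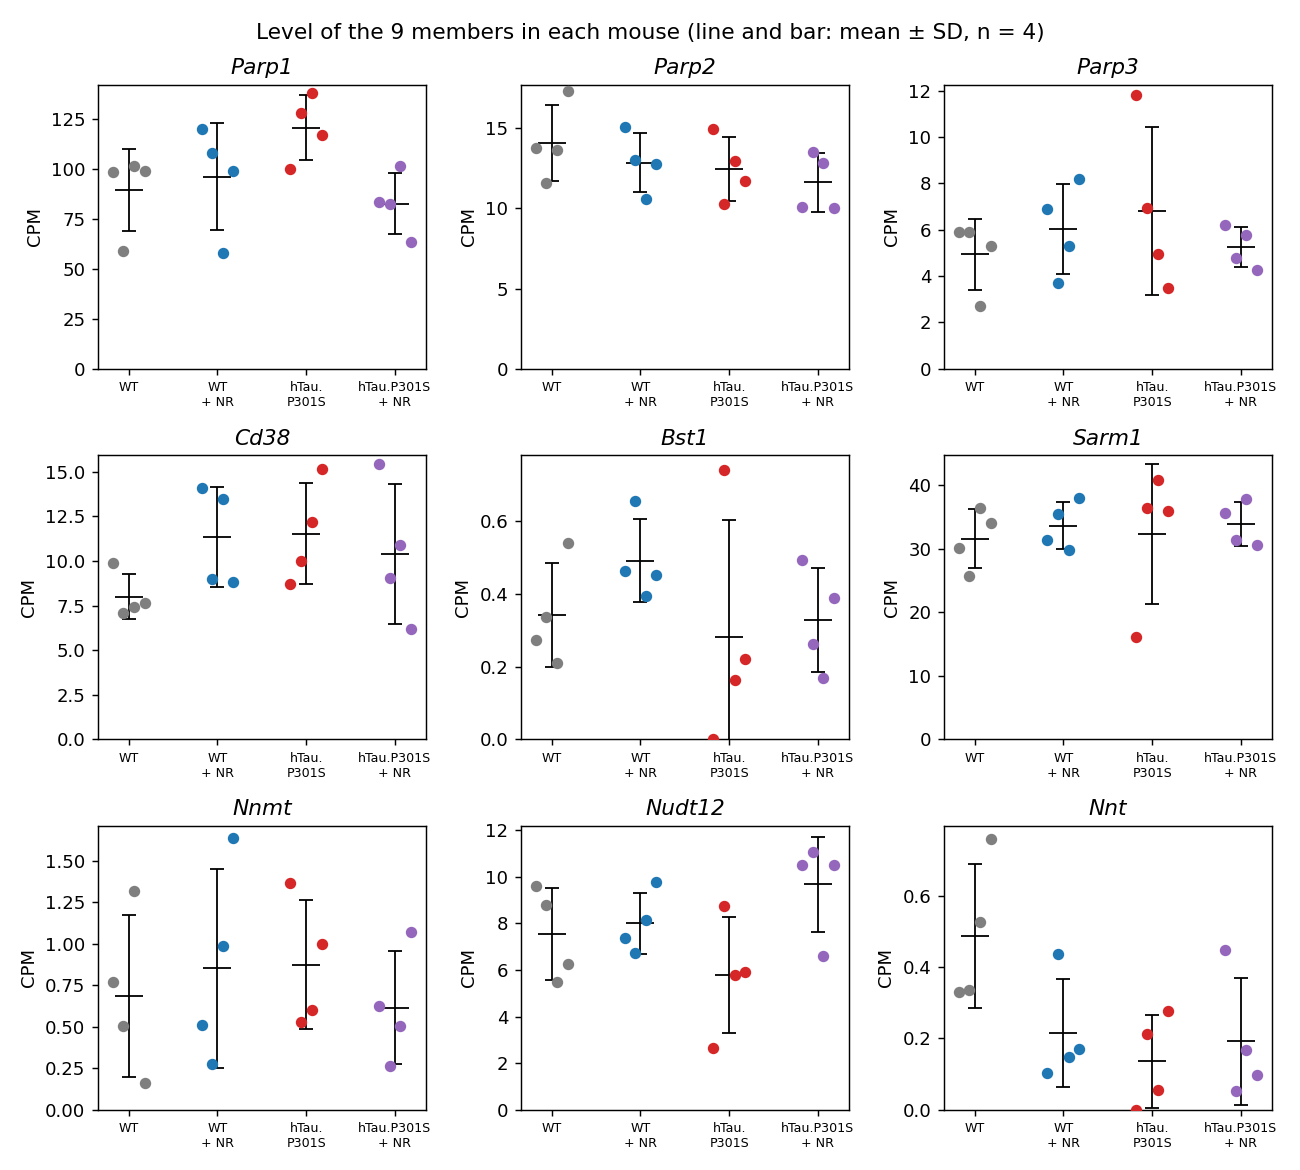
CPM of the 9 members in each mouse by group, each panel on its own linear axis from 0, with points for replicates 1 to 4 from left to right and lines and bars for the mean ± SD (n = 4, bars cut at 0). Of the hTau.P301S mice, 3 lie above all WT mice for Parp1, and for Nudt12 3 hTau.P301S + NR mice lie above all hTau.P301S mice.

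The second question was whether NR changed these genes in hTau.P301S mice. With edgeR, 0 of 7 members were called and 1, Parp1, reached an unadjusted p under 0.05, where 0.0061% of all genes were called and 12.9% reached that p. DESeq2 on the same mice called 0 members and put 2, Parp1 and Nudt12, at an unadjusted p under 0.05. The hTau.P301S mice are the same animals as in the first comparison, and the WT mice serve in the first and in the comparison of WT + NR with WT, so that values across comparisons are not independent.

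Parp1 measured 83.4, 82.3, 101 and 63.7 CPM in hTau.P301S + NR mice, against the 99.9 to 138 CPM given above for hTau.P301S mice. The groups overlapped through 1 pair of mice of 16, since hTau.P301S + NR replicate 3 lay just above hTau.P301S replicate 1. The log2 fold change was -0.55 (-0.97 to -0.13, edgeR unadjusted p = 0.0159, adjusted p = 0.367). Leaving out hTau.P301S replicate 1 gave -0.62 (-0.94 to -0.29) and an edgeR adjusted p of 0.0914, the lowest of any member in any fit made. Over the fits with all mice of both groups, Parp1 lay between -0.56 and -0.52.

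Nudt12 measured 10.5, 11.1, 6.61 and 10.5 CPM in hTau.P301S + NR mice, and 3 of them were above every hTau.P301S mouse. Its log2 fold change was 0.74 (-0.05 to 1.52, edgeR adjusted p = 0.367), and 0.52 without hTau.P301S replicate 1 (edgeR adjusted p = 0.293). When all 16 mice shared 1 estimate of the spread, its adjusted p was 0.183 with edgeR and 0.131 with DESeq2. Log2 Nudt12 had r = 0.68 with the log2 sum of the choroid plexus markers over 16 mice. That sum ranged from 21.0 to 4791 CPM in hTau.P301S and from 61.8 to 3616 CPM in hTau.P301S + NR mice, and its part in the difference was not tested.

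The other members lay closer together, and every member overlapped between the groups, where 11.9% of the genes tested did not. Cd38 measured 15.5, 9.03, 10.9 and 6.17 CPM in hTau.P301S + NR mice, which holds both the highest and the lowest value of the 16 mice, with a log2 fold change of -0.15 (-0.85 to 0.54, edgeR adjusted p = 0.799). Sarm1 measured 35.6, 31.4, 37.8 and 30.5 CPM, with a log2 fold change of 0.07 (-0.55 to 0.68, edgeR adjusted p = 0.907). Parp2 gave -0.11 (-0.57 to 0.35), Parp3 -0.38 (-1.23 to 0.48) and Nnmt -0.48 (-1.65 to 0.68) on the log2 scale. Without hTau.P301S replicate 1, Sarm1 stood at -0.15 and Parp3 at 0.04, so that 1 mouse set the direction of both.

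In WT mice NR addressed the same question without the transgene. edgeR called 0 of 7 members and put 1, Cd38, at an unadjusted p under 0.05, where 0% of all genes were called and 0.79% reached that p, and DESeq2 called 0 and put the same 1 there. Cd38 measured 14.1, 9.02, 13.5 and 8.80 CPM in WT + NR mice, and 2 of these were above every WT mouse, the other two lying within the WT range. The log2 fold change was 0.51 (0.02 to 1.01, edgeR unadjusted p = 0.0436, adjusted p = 1.0). Without the 3 mice with the highest striatal sums it was 0.36 (edgeR unadjusted p = 0.190). Parp1 measured 120, 108, 57.8 and 99.2 CPM, with a log2 fold change of 0.11 (-0.45 to 0.67, edgeR adjusted p = 1.0). All members overlapped between these groups, where 0.754% of the genes tested did not. The lowest log2 fold change among the 7 members was that of Parp2, at -0.13 (-0.51 to 0.26).

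Between the genotypes on NR, edgeR called 0 of 7 members with 0 at an unadjusted p under 0.05, where 0.054% of all genes were called and 6.09% reached that p, and DESeq2 gave 0 for both. The members spanned log2 fold changes from -0.46 for Nnmt (-1.79 to 0.88) to 0.27 for Nudt12 (-0.19 to 0.74), and Parp1 stood at -0.22 (-0.71 to 0.27, edgeR adjusted p = 0.838). All members overlapped between these groups, where 3.73% of the genes tested did not. With 1 mouse left out, Parp1 moved to -0.08 without WT + NR replicate 1 and to -0.40 without WT + NR replicate 3.

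Over all 16 mice, with NR as a term, genotype gave 0 called members with edgeR and DESeq2 and 0 at an unadjusted p under 0.05 with either, where edgeR called 0.12% of all genes and 7.75% reached that p. All members overlapped between the genotypes, where 0.194% of the genes tested did not. The log2 fold changes ran from -0.16 for Parp2 (-0.43 to 0.11) to 0.20 for Cd38 (-0.23 to 0.63). With genotype as a term, NR likewise gave 0 called members with both tools and 0 at an unadjusted p under 0.05, where edgeR called 0% of all genes and 5.74% reached that p. All members overlapped here too, where 0.0114% of the genes tested did not. Nudt12 stood highest at 0.41 (-0.06 to 0.89, edgeR adjusted p = 0.585) and Parp1 lowest at -0.22 (-0.60 to 0.16, edgeR adjusted p = 0.641).

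Whether NR acted differently in the genotypes was tested as an interaction, called by the adjusted p alone. edgeR and DESeq2 called 0 members and put 0 at an unadjusted p under 0.05, where edgeR called 0% of all genes and 7.92% reached that p. The difference between the NR effect in hTau.P301S and in WT mice was -0.65 on the log2 scale for Parp1 (-1.34 to 0.04, edgeR adjusted p = 0.558), -0.65 for Cd38 (-1.47 to 0.17, edgeR adjusted p = 0.561) and 0.65 for Nudt12 (-0.26 to 1.56, edgeR adjusted p = 0.586). These intervals hold 0 and also differences of more than 1 unit.

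**Figure D3:**
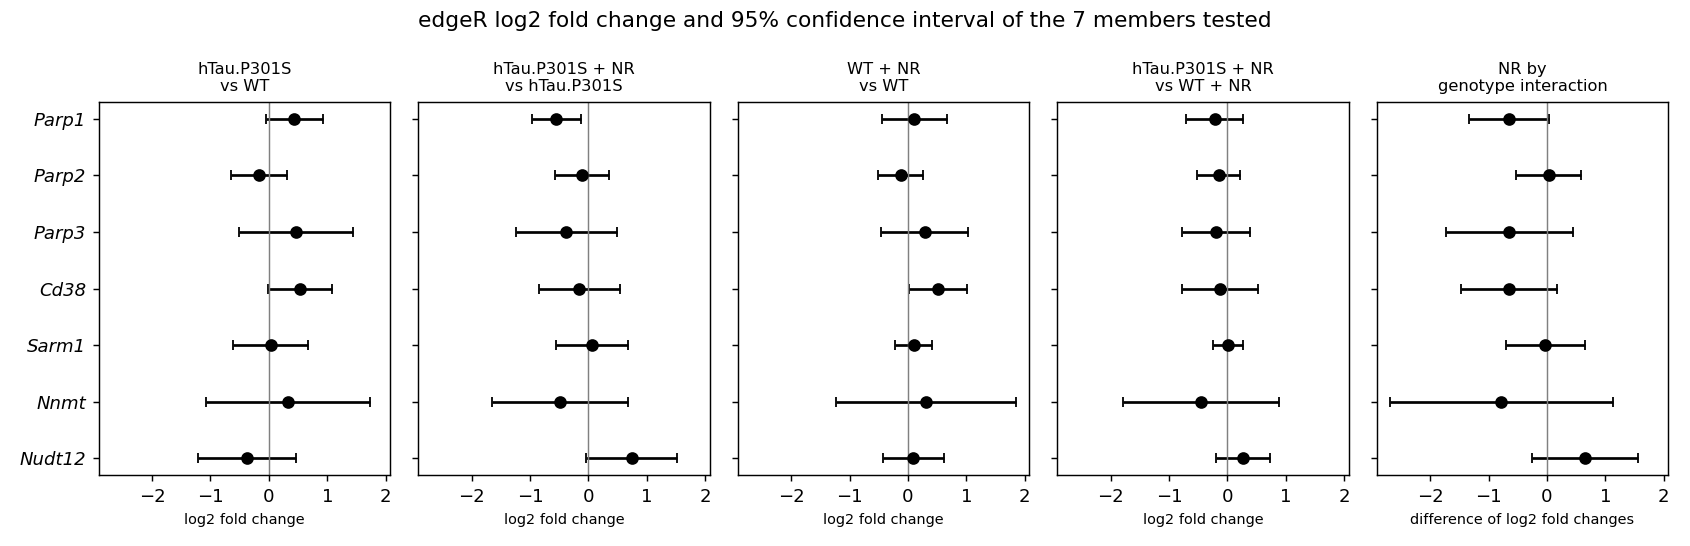
Log2 fold change (x axis) of the 7 members tested in 4 comparisons of pairs of groups, and the NR by genotype interaction as a difference of log2 fold changes, with points for the edgeR estimate and bars for the 95% confidence interval. The intervals that do not hold 0 are those of Parp1 in hTau.P301S + NR against hTau.P301S (-0.97 to -0.13) and of Cd38 in WT + NR against WT (0.02 to 1.01), and neither gene was called.

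Parp1 varied across mice together with markers of brain region and with the neuronal sum. Its 3 lowest values over the 16 mice, 57.8 CPM in WT + NR replicate 3, 58.9 CPM in WT replicate 2 and 63.7 CPM in hTau.P301S + NR replicate 4, fell in the 3 mice with the highest striatal sums. Across mice, log2 Parp1 had r = -0.82 with the log2 striatal sum and 0.79 with the sum of hippocampal principal neuron markers (n = 16, mice of 4 groups pooled, values of the same libraries). Over the 13 mice without these 3, r was -0.59 and 0.46. The neuronal sums of these 3 mice, 5566 to 7753 CPM, were the lowest apart from that of hTau.P301S replicate 1. With the neuronal sum Parp1 had r = 0.58 over 16 mice, 0.88 without hTau.P301S replicate 1 and 0.33 over the 13. Brain region and neuronal content were not told apart. No hTau.P301S mouse was among the 3. The striatal sum ranged from 173 to 224 CPM in hTau.P301S mice, 180 to 2409 CPM in WT, 158 to 486 CPM in WT + NR and 197 to 890 CPM in hTau.P301S + NR.

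Each comparison holds at most 1 of these mice per group. Without them the log2 fold change of Parp1 was 0.26 between hTau.P301S and WT, where only WT replicate 2 was left out (-0.17 to 0.69, edgeR adjusted p = 0.626), and -0.44 between hTau.P301S + NR and hTau.P301S (-0.88 to -0.00, edgeR adjusted p = 0.534), against 0.44 and -0.55 with them. Leaving out hTau.P301S replicate 1 as well gave 0.34 (0.12 to 0.57, edgeR adjusted p = 0.156) and -0.52 (-0.79 to -0.24, edgeR adjusted p = 0.107) with 3 mice per group. For the interaction, the same 12 mice gave -0.65 (-0.99 to -0.31, edgeR unadjusted p = 0.00126, adjusted p = 0.169), and 13.4% of all genes reached an unadjusted p under 0.05 there. The direction of these Parp1 values held without the mice, and none of them passed the threshold. The 3 mice with the highest striatal sums also held the 3 lowest Parp1 values. Leaving them out therefore did not test the part of tissue composition in these differences. These sets of mice were chosen after seeing the data.

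Sarm1, Parp3 and Cd38 also varied with marker sums. Log2 Sarm1 had r = 0.91 with the log2 neuronal sum over 16 mice and 0.82 over 15 mice without hTau.P301S replicate 1, and Parp1 had 0.58 and 0.88. With the striatal sum Sarm1 had r = -0.35 over 16 mice and -0.79 over 15. Log2 Parp3 had r = 0.71 with the microglial and 0.82 with the blood-borne immune sum over 16 mice, and 0.48 and 0.74 without that mouse. Log2 Cd38 had r = 0.57 with the oligodendrocyte and 0.54 with the astrocyte sum over 16 mice, and 0.64 and 0.53 without that mouse. Of the 8 blood-borne immune markers, only 3 passed the filter on low counts over all 16 mice. The part of cell composition in the levels of Sarm1, Parp3 and Cd38 was not tested.

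**Figure D4:**
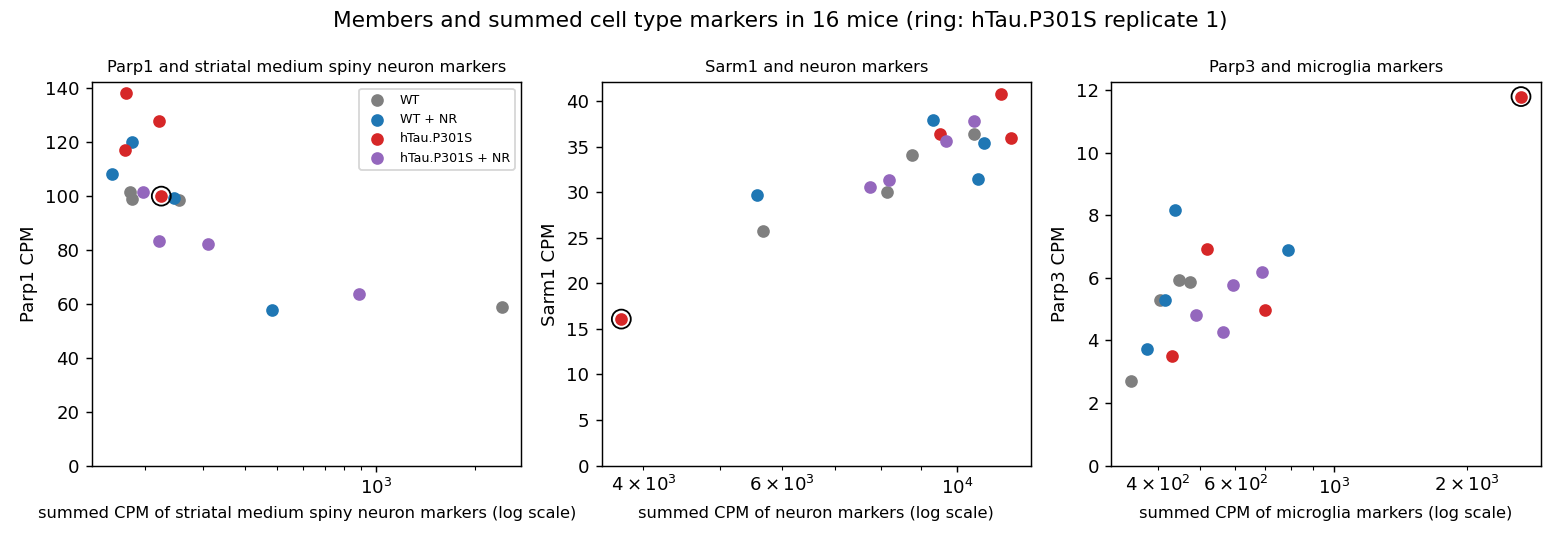
Level of Parp1, Sarm1 and Parp3 (CPM, linear axis from 0) against the summed CPM of striatal, neuronal and microglial markers (log axis) in 16 mice coloured by group, with a ring around hTau.P301S replicate 1. The 3 lowest Parp1 values lie at the 3 highest striatal sums (486, 890 and 2409 CPM), and the ringed mouse has the lowest Sarm1 (16.1 CPM) and the highest Parp3 (11.8 CPM).

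The genes whose log2 CPM followed each member most closely over 16 mice are given as a description. For Parp1 they were Kcnab2 (r = 0.96), Pip4k2c (0.96) and Gpd1 (0.95), with r of at least 0.95 also over 15 mice without hTau.P301S replicate 1. For Sarm1 they were Garem1, Chrna7 and Atp2a2 (each 0.97 over 16 mice and 0.88 to 0.89 over 15). For Nudt12 they were Fzd8 (0.94), Rassf8 (0.93) and Csgalnact1 (0.93), and for Parp3 Apobec1 (0.91), Mettl11b (0.90) and Gsn (0.90), all of them 0.83 to 0.85 over 15 mice. For Parp2 they were Gm9752 (0.86), Flt3l (0.85) and Sema6c (0.84), for Cd38 Slc14a1 (0.82), Isg20l2 (0.81) and Twf1 (0.81), and for Nnmt, at few counts, Armc9 (0.75), Pigs (0.73) and Zfp992 (0.73). Among the members themselves, Parp1 and Sarm1 had r = 0.35 over 16 mice and 0.75 over 15, and Nudt12 and Sarm1 went from 0.48 to -0.47, whereas Parp1 and Parp2 (0.40 and 0.41) and Cd38 and Parp1 (0.33 and 0.34) hardly moved without hTau.P301S replicate 1.

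Genes that act beside the members were read from 8 lists, namely other PARPs, removal of ADP-ribose, repair partners of PARP1, partners of SARM1 in axon degeneration, nicotinamide and methyl group handling, supply of NADPH, other Nudix hydrolases, and uptake and transport of NAD+ and NR. None of the 94 list genes tested between hTau.P301S and WT was called by edgeR, and 1.06% had an unadjusted p under 0.05, beside 7.14% of all genes tested. Between hTau.P301S + NR and hTau.P301S, 0 of 93 were called and 11.8% had an unadjusted p under 0.05, 3 with higher and 8 with lower values, beside 12.9% of all genes tested (961 higher and 1149 lower). The other comparisons called 0 of 93 to 95. The median log2 fold changes without NR were 0.30 for ADP-ribose removal, 0.24 for repair partners, 0.25 for NADPH supply and 0.22 for Nudix hydrolases, beside 0.02 over all genes, and those after NR in hTau.P301S mice were -0.46, -0.31, -0.18 and -0.37, beside -0.03. The medians of the other PARPs (-0.05 and 0.26), the SARM1 partners (0.05 and 0.10), nicotinamide handling (0.00 and -0.05) and transport (-0.02 and 0.01) lay nearer to those of all genes, apart from the PARPs after NR. The hTau.P301S mice stand on opposite sides of these comparisons. For ADP-ribose removal, repair partners, NADPH supply and Nudix hydrolases, the medians in WT + NR against WT were -0.07, -0.05, 0.05 and 0.04. Between the genotypes on NR they were -0.04, -0.15, -0.004 and -0.14.

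Between hTau.P301S and WT, the gene with the smallest p over these lists was Me3, a mitochondrial malic enzyme that yields NADPH. It measured 34.1, 32.2, 47.6 and 39.9 CPM in WT and 104, 49.0, 61.0 and 58.7 CPM in hTau.P301S mice, without overlap, as for 6.24% of all genes tested, at a log2 fold change of 0.84 ± 0.27 (SE, edgeR adjusted p = 0.598). Within their lists, the smallest p belonged to Pcna, the sliding clamp of replication and repair (0.64), Nudt17, a Nudix hydrolase (1.23), Stmn2, an axonal stathmin (0.51), Slc29a3, a nucleoside transporter of lysosomes (0.34), Trpm2, a channel opened by ADP-ribose (-0.38), Parp14, a mono-ADP-ribosyltransferase (-0.57), and Aox3, an aldehyde oxidase (-1.72), each with an edgeR adjusted p of 0.598 or 0.606.

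After NR in hTau.P301S mice, Mat2b, the regulatory subunit of the enzyme that makes S-adenosylmethionine, measured 66.6, 82.2, 68.8 and 82.0 CPM, against 103, 96.0, 107 and 101 CPM in hTau.P301S mice. The groups did not overlap, at a log2 fold change of -0.45 ± 0.14 (SE, edgeR adjusted p = 0.367), where that 11.9% of all genes tested did not overlap. The smallest p of the other lists belonged to Aldh1l2, a mitochondrial folate enzyme that yields NADPH (1.17), Parp14 (0.86), Enpp1, an ectonucleotidase (0.72), Mycbp2, a ubiquitin ligase subunit that turns over NMNAT2 (0.62), Pcna (-0.82), Macrod1, an ADP-ribose hydrolase (-0.99), and Nudt17 (-1.45), all with an edgeR adjusted p of 0.367. Of the 13 list genes named, hTau.P301S replicate 1 held the highest value of all 16 mice for 5 (Me3, Pcna, Stmn2, Macrod1 and Nudt17) and the lowest for 5 (Parp14, Trpm2, Aox3, Mycbp2 and Aldh1l2). For Me3, Pcna, Macrod1 and Nudt17 it had 104, 111, 54.2 and 33.6 CPM, where the other 15 mice reached at most 61.0, 48.8, 24.9 and 7.79 CPM. The part of that mouse in the list values and medians was not tested.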

How the data were processed

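Hippocampal RNA of 16 mice was sequenced after selection of poly(A) RNA. The authors checked reads with FastQC, trimmed them with Trim Galore, and used STAR (genome mm10) and RSEM to obtain gene-level counts. The deposited counts are raw, whole and not normalised, although RSEM estimates need not be whole. Tool versions were not given in the sources used here, nor whether strand was used. The table lists 54532 rows with identifier, symbol and length. Positions come from GENCODE M21 on GRCm38 and promoter windows from RefSeq (GRCm38.p6).

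Counts were fitted with edgeR 4.0.16 in R 4.3.3 (default filter on low counts, TMM, quasi-likelihood test) over the 8 mice of each pair of groups, or all 16 for genotype, NR and their interaction, and Benjamini-Hochberg adjustment covered all genes tested. A call needed an adjusted p below 0.05 with a log2 fold change beyond 0.5 in either direction, or, for the interaction, that adjusted p alone. Standard errors came from the log2 fold change and its F statistic, and intervals are at 95%. CPM used TMM library sizes over 16 mice, and log2 CPM a prior count of 2. The fits were run on simulated counts with the same dispersion for every gene and no aberrant mouse. That checks the code and does not show what the fits can detect in these mice. DESeq2 1.42.0, fits with all 16 mice, DESeq2's size factors, no filter, no mitochondrial genes, the replicate number as a block and each mouse left out were alternatives.

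All 9 members were named, with the 3 genes of highest Pearson r for each member that passed the filter, every called gene of the lists (0 were) and otherwise the list gene with the smallest p in the comparisons of hTau.P301S with WT and of hTau.P301S + NR with hTau.P301S. Members and lists were chosen with earlier results of these data known, and the list of hippocampal principal neuron markers (Prox1, C1ql2, Dsp, Wfs1 and Fibcd1) was added after seeing the data. No source ties same-numbered mice to each other, and each p-value measures the spread between the mice of the fit that gave it. No pair of mice in a group agreed within sampling noise (chi-square per degree of freedom of at least 11.4). Total counts of 16490261 to 21915362 leave Nnmt, Bst1 and Nnt with at most 29 counts per mouse. Counting limits cover counting error only.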

Additional observations from a re-analysis of the deposited data

Results flagged for a closer look

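A gap test within groups of 4 mice (Dixon's, at its 95% critical value) was run on 56 groups of values, 36 of them levels of members, and 7 had 1 mouse far from the rest, where chance gives about 1 in 20. Of these 7, only Parp1 in WT and Nudt12 in hTau.P301S + NR were levels of members. Among the 36 that is about the share that chance gives. Among the members, Parp1 was far lower in WT replicate 2 (58.9 CPM) than in the other WT mice (98.7 to 101 CPM), and Nudt12 was lower in hTau.P301S + NR replicate 3 (6.61 CPM) than in the rest of its group (10.5 to 11.1 CPM). WT replicate 2 also had the highest striatal marker sum of its group, 2409 CPM against 180 to 253 CPM, and hTau.P301S + NR replicate 4 that of its own, 890 CPM against 197 to 310 CPM. The microglial sum stood apart in hTau.P301S replicate 1 (2654 CPM, the rest of the group 431 to 698 CPM) and in WT + NR replicate 1 (787 CPM, the rest 379 to 438 CPM), and the blood-borne immune sum in hTau.P301S replicate 1 (452 CPM, the rest 23.1 to 45.7 CPM). No member passed the test of a difference in the NR effect between genotypes.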

How the results depend on the processing

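No member was called in any of the 142 fits over 7 comparisons, and the lowest adjusted p of a member was 0.0914. Of the 27 log2 fold changes of members stated, 19 kept their direction under every alternative run. For hTau.P301S against WT, Sarm1 was -0.032 with the replicate block, -0.069 without the 3 mice with the highest striatal sums and -0.097 to 0.25 with 1 mouse left out, and Nnmt was -0.096 without those 3 and hTau.P301S replicate 1, and -0.018 to 0.83 with 1 mouse left out. For hTau.P301S + NR against hTau.P301S, leaving out 1 mouse gave -0.18 to 0.0039 for Parp2, -0.58 to 0.044 for Parp3, -0.40 to 0.032 for Cd38 and -0.15 to 0.20 for Sarm1. Leaving out the 4 mice named gave 0.064 for Parp2, 0.13 for Parp3 and -0.10 for Sarm1, and leaving out the 3 gave 0.032 for Cd38. In this comparison and in hTau.P301S against WT, only 1 of the 3 mice takes part. Leaving out the 3 there repeats a fit with 1 mouse left out, and both repeats are counted among the 142 fits. With 1 mouse left out, Parp1 in WT + NR against WT was -0.053 to 0.29, and Nnmt in hTau.P301S + NR against WT + NR was -0.86 to 0.052. The cause was not tested. Bst1 and Nnt did not pass the filter with all mice of a comparison. Without it, edgeR gave -0.22 for Bst1 and -1.73 for Nnt in hTau.P301S against WT, neither called.

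The replicate block changed no other direction and no call of a member. Same-numbered mice did not deviate from their group means together (r of -0.54 to 0.42 over 24 pairs, above 0.1 in 8), and 5 of 16 mice were closest to a mouse of another group with their own number.

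Counts of called genes depended on the tool. For hTau.P301S against WT, edgeR called 1 gene, or 36 with all 16 mice, 5 without the filter, 3 with the replicate block and up to 14 with 1 mouse left out (hTau.P301S replicate 1), whereas DESeq2 called 116, or 492 with all 16 mice. For hTau.P301S + NR against hTau.P301S, edgeR called 1, or 2 with all 16 mice, 0 with the block and 33 without hTau.P301S replicate 1, and DESeq2 253 and 245. For hTau.P301S + NR against WT + NR the counts were 9 with edgeR, 15 without the filter, 4 with the block and 31 without WT + NR replicate 3, and 58 and 25 with DESeq2. For genotype over 16 mice they were 21 with edgeR, 57 without hTau.P301S replicate 1 and 108 with DESeq2, for the interaction 0 and 16, for NR over 16 mice 0 and 2, and for WT + NR against WT 0 and 3 or 3. Without the 3 or 4 mice, chosen after seeing the data, edgeR called 23 genes (hTau.P301S against WT, 4 left out), 0 and 2 (NR in hTau.P301S), 28 (genotypes on NR) and 91 (genotype, 4 left out). Without the filter, the median log2 fold change of all genes for hTau.P301S against WT was -0.13, and 0.02 with it.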
